A study of Rattus norvegicus with 6 samples.

Results

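The miR-30 family was followed in small RNA from extracellular vesicles of rat dedifferentiated fat (DFAT) cells, as every mature miRNA named miR-30a to miR-30e, on either arm of its precursor. The family filled 9 lines of the deposited count table, which gave 8 mature sequences of 417 in all, because miR-30c-5p was listed once for each of its 2 precursors with the same counts. The 5p arm gave 5 of them, rno-miR-30a-5p, rno-miR-30b-5p, rno-miR-30c-5p, rno-miR-30d-5p and rno-miR-30e-5p, written below without the species prefix, and the 3p arm 3, miR-30a-3p, miR-30b-3p and miR-30e-3p. These cells are grown from mature fat cells of Sprague-Dawley rats by ceiling culture, lose their lipid on attaching and can then form several tissues. Vesicles, isolated by ultracentrifugation, came from cells before induction (0 d, n = 3) or after 14 d in osteogenic induction medium (14 d, n = 3). The series has no group kept for 14 d without induction, so induction and time in culture cannot be told apart. The labels name no genetic change in either group. The labels do not say whether the 3 samples of a group came from separate animals or cultures, so the p-values cover the spread between samples that may be technical repeats.

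A miRNA guides an Argonaute protein to mRNAs that pair with its seed, bases 2 to 8, and lowers their output. The miR-30 family is known to pair with the mRNAs of Runx2, the transcription factor that starts the osteoblast programme, and of Smad1, which carries the bone morphogenetic protein signal to the nucleus. In mouse osteoblast cultures its members are known as inhibitors of differentiation, and in human fat-derived stromal cells miR-30a and miR-30d are known to favour fat cell formation. The genes lie in neighbouring pairs. In the RefSeq annotation of the rat assembly GRCr8, Mir30e and Mir30c1 both lie inside Nfyc, a gene for a CCAAT-binding factor subunit. Mir30b lies beside Mir30d, both inside the annotated LOC102551574. Mir30a lies beside Mir30c2, which is inside LOC134480562 and Rbx1-ps1. Each pair is on 1 chromosome with 0 annotated genes wholly between its members.

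RefSeq (GRCr8) held a mature sequence for 4 of the 8 members, each identical to the one in the deposited table. The 5p sequences are shown because the shared seed, in capitals, defines the family, and the bases after it are what tells the members apart in sequencing. The last line is a 3p arm, that of miR-30a, with its own seed in capitals.
miR-30a-5p: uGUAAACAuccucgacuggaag
miR-30e-5p: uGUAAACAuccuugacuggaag
miR-30c-5p: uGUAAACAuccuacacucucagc
miR-30a-3p: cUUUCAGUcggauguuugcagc
The 5p seed was carried by 5 of the listed sequences, the 5p forms of miR-30a to miR-30e, and no other annotated or predicted sequence did. Among the 3p arms, miR-30a-3p and miR-30e-3p share another seed, which miR-30b-3p does not have. Counted from 1 at the 5′ end, miR-30a-5p and miR-30e-5p differ by C13U. miR-30a-5p and miR-30d-5p also differ at 1 base of 22, whereas miR-30a-5p and miR-30c-5p differ at 5 of the first 22. How the deposited counting treated reads with a mismatch is not stated in the labels or file headers, so the counts of miR-30a-5p, miR-30d-5p and miR-30e-5p carry an uncertainty that was not measured.

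The libraries held 120766 to 164424 miRNA counts at 0 d and 58730 to 73236 at 14 d. miR-21-5p alone took 29.4% to 42.4% of the counts at 0 d and 59.7% to 68.7% at 14 d. Counts were scaled by TMM (trimmed mean of M-values), with factors of 1.34 to 1.38 at 0 d and of 0.92, 0.47 and 0.92 in 14 d replicates 1, 2 and 3. With its low factor 14 d replicate 2 stood apart, and so did 0 d replicate 3, where red cell and serum miRNAs took the largest share. The stromal source was checked with 14 miRNAs known to be abundant in mesenchymal cells, of which 13 were listed and miR-10b-5p was not. Their summed share was 32.5% to 45.8% at 0 d and 65.1% to 72.3% at 14 d, for the most part as miR-21-5p, so the check rests mainly on that miRNA. Of the 12 tested, 5 were higher and 2 lower at 14 d, beside 26.1% higher and 28.6% lower over all 119 sequences tested.

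The family took 0.662% ± 0.329 (SD, n = 3) of all counts before induction and 1.63% ± 0.476 (SD, n = 3) after it. Per library the shares were 0.894%, 0.806% and 0.286% at 0 d and 1.40%, 2.17% and 1.31% at 14 d, so each 14 d library lay above each 0 d library. The lowest share belonged to 0 d replicate 3 and the highest to 14 d replicate 2. Without miR-21-5p in the total, the shares were 1.08% ± 0.590 and 4.45% ± 0.957 (SD, n = 3 each). In vesicle RNA, more copies per vesicle and more vesicles of one kind cannot be told apart.

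miR-30d-5p was the main member in every library, with 82.0% to 87.5% of the family's total before induction and 80.4% to 83.3% after it. Its counts were 1169, 1160 and 283 at 0 d and 712, 1280 and 636 at 14 d, from libraries that were shallower at 14 d. Among all listed sequences it ranked 17, 17 and 38 by count at 0 d and 10, 8 and 12 at 14 d. These ranks need no scaling factor, and every 14 d library placed it higher than any 0 d library did.

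In CPM (counts per 1000000 of the library, TMM-scaled), miR-30d-5p was at 5722, 5247 and 1693 before induction and at 12627, 37126 and 11745 after it. The group means were 4221 ± 2202 and 20499 ± 14406 CPM (SD, n = 3 each), and the groups did not overlap. 0 d replicate 3 was low and 14 d replicate 2 high. miR-30d-5p rose by 2.28 ± 0.66 on the log2 scale (SE from 3 against 3 libraries; edgeR quasi-likelihood adjusted p = 0.0226), about 4.85-fold. The rise was 1.55 without 14 d replicate 2 (adjusted p = 0.0423), 1.89 without 0 d replicate 3 (adjusted p = 0.0437) and 1.17 without both (adjusted p = 0.00403). Leaving out both was chosen after seeing the data and removes the lowest 0 d and the highest 14 d level. Its adjusted p is therefore no further support. The call was lost with total counts as the scale (1.23 ± 0.53, adjusted p = 0.0779) and with limma on the log2 of the authors' normalized table plus 1 (1.50 ± 0.63, adjusted p = 0.0869).

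miR-30a-5p, which shares the seed and differs from miR-30d-5p by 1 base, had the largest log2 fold change of the tested members. Its counts were 79, 54 and 47 at 0 d and 111, 292 and 112 at 14 d, higher at 14 d even before the difference in depth was taken into account. Its rank by count was 68, 77 and 75 at 0 d and 31, 17 and 31 at 14 d. At 387, 244 and 281 CPM the 0 d libraries lay close together, and at 1969, 8469 and 2068 CPM every 14 d library lay above them, with replicate 2 far above the other 2.

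The group means of miR-30a-5p were 304 ± 73.9 and 4169 ± 3725 CPM (SD, n = 3 each). It rose by 3.77 ± 0.70 on the log2 scale (edgeR adjusted p = 0.00499), about 13.6-fold, and its log2 fold change ranked 15 of 119 tested, against 30 for miR-30d-5p. Without 14 d replicate 2 the rise was 2.75 (adjusted p = 0.00175), and with total counts as the scale 2.64 (adjusted p = 0.00219). On that scale the levels were 519, 328 and 389 CPM at 0 d and 1816, 3987 and 1907 CPM at 14 d. The call held in all 19 alternatives, with values of 2.64 to 4.39.

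miR-30c-5p, made from the precursors beside Mir30e and beside Mir30a, did not pass the test. Its counts were 102, 75 and 15 at 0 d and 22, 7 and 15 at 14 d. This gave 499, 339 and 89.7 CPM at 0 d and 390, 203 and 277 CPM at 14 d, and the groups overlapped. The lowest TMM-scaled level was in 0 d replicate 3, while the lowest count was in 14 d replicate 2. The log2 fold change was -0.09 ± 0.77 (edgeR adjusted p = 0.927), and its SE leaves room for a change of either sign. The sign itself was not stable, with values of -0.82 (total counts) to 0.33 (without 0 d replicate 1) over the alternatives that tested it.

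**Figure D1:**
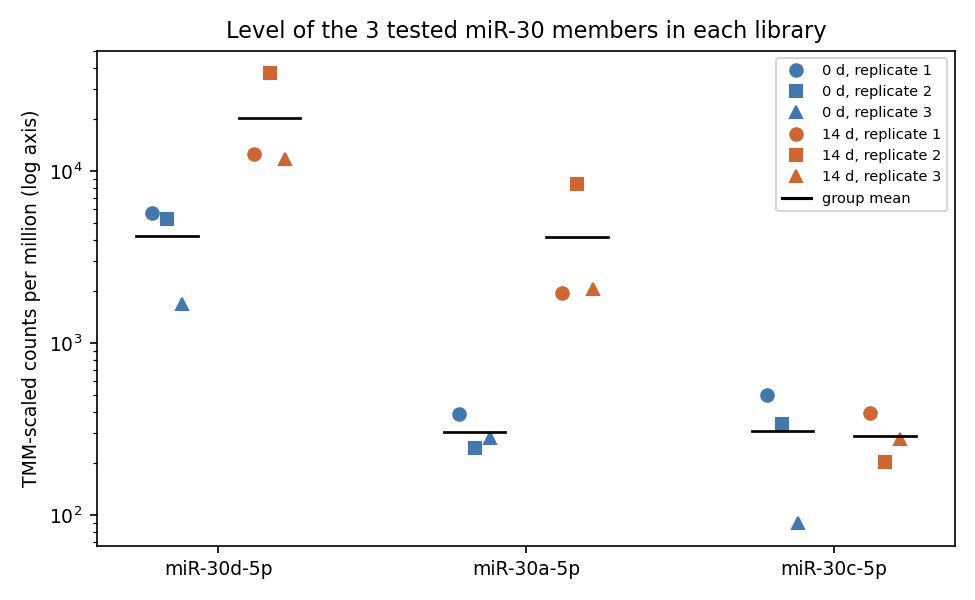
TMM-scaled CPM (log axis) of miR-30d-5p, miR-30a-5p and miR-30c-5p, with 1 point per library (blue 0 d, orange 14 d; the marker shape gives the replicate number) and a line at each group mean. For miR-30d-5p and miR-30a-5p all 14 d points lie above all 0 d points, with 14 d replicate 2 highest at 37126 and 8469, whereas the miR-30c-5p groups overlap.

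Of the 3 members with enough counts to be tested, 2 rose and 0 fell. Over all 119 sequences tested, 54.6% were called in either direction and 26.1% were called higher, and in 41.2% all 14 d libraries lay above all 0 d libraries, which held for 2 of the 3 members. With so much of the table changed, 2 calls of 3 are not a result particular to the family. The median log2 fold change was 2.28 over the 3 members and 0.26 over all tested sequences. Total counts as the scale shifted all log2 fold changes by a median of -0.86. They gave 1 member higher and, over all sequences, 18 higher (15.1%) and 46 lower, against 31 higher and 34 lower (28.6%) with TMM. limma on the authors' table also gave 1 member higher, beside 16.8% of all sequences, and DESeq2 gave 2, beside 31.1%.

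At 0 d the order of levels was miR-30d-5p, then miR-30c-5p (309 ± 206 CPM) and miR-30a-5p (304 ± 73.9 CPM), which did not differ beyond their spread. At 14 d it was miR-30d-5p, miR-30a-5p, miR-30c-5p (290 ± 94.2 CPM) and miR-30e-5p (148 ± 148 CPM; SD, n = 3 in each case). At 14 d the lowest miR-30d-5p level, 11745 CPM, was above the highest of miR-30a-5p, 8469 CPM, and the lowest of miR-30a-5p, 1969 CPM, was above the highest of miR-30c-5p, 390 CPM. miR-30c-5p and miR-30e-5p overlapped, since miR-30e-5p reached 319 CPM in 14 d replicate 2. All these sequences have 22 or 23 bases where RefSeq gives them, but how well the library kit captures each one was not measured.

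Ratios between members of the same library do not depend on any scaling, and 4 pairs were compared with exact 2-sided permutation tests, whose smallest possible p is 0.1 for 3 libraries against 3. miR-30a-5p and miR-30c-5p, from the Mir30a and Mir30c2 neighbours (miR-30c-5p also comes from Mir30c1), were set against each other first. In the 0 d libraries miR-30a-5p had 77.5%, 72.0% and 313% of the miR-30c-5p count, and in the 14 d libraries 505%, 4171% and 747%. The mean log2 ratio went from 0.26 ± 1.18 to 3.48 ± 1.58 (SD, n = 3 each), a difference of 3.23 (exact permutation p = 0.1, or 0.133 adjusted over the 4 pairs), and the groups did not overlap. Without 14 d replicate 2, where miR-30c-5p had 7 counts, the difference was 2.32.

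The log2 ratio of miR-30d-5p to miR-30c-5p was 3.51, 3.94 and 4.19 before induction and 4.98, 7.42 and 5.36 after it. Again every 14 d library lay above every 0 d library, with a difference of the means of 2.04 (exact permutation p = 0.1, adjusted 0.133) and of 1.29 without 14 d replicate 2. Within the family's counts this left miR-30c-5p with a smaller part at 14 d, since it held 5.83% ± 1.58 of the family before induction and 1.66% ± 1.10 after it. miR-30a-5p held 7.83% ± 5.09 and 15.3% ± 2.75 (SD, n = 3 each). These miR-30a-5p shares overlapped, with 0 d replicate 3 at 13.6% above 14 d replicate 1 at 13.0%.

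Between the members that rose, no difference was shown. The miR-30a-5p count was 6.76%, 4.66% and 16.6% of the miR-30d-5p count at 0 d and 15.6%, 22.8% and 17.6% at 14 d. The groups overlapped because 0 d replicate 3 lay above 14 d replicate 1. The log2 ratio differed by 1.19 (exact permutation p = 0.2, also 0.2 adjusted), from a 0 d mean of -3.62 ± 0.94 to a 14 d mean of -2.44 ± 0.28 (SD, n = 3 each), and by 1.71 without 0 d replicate 3.

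**Figure D2:**
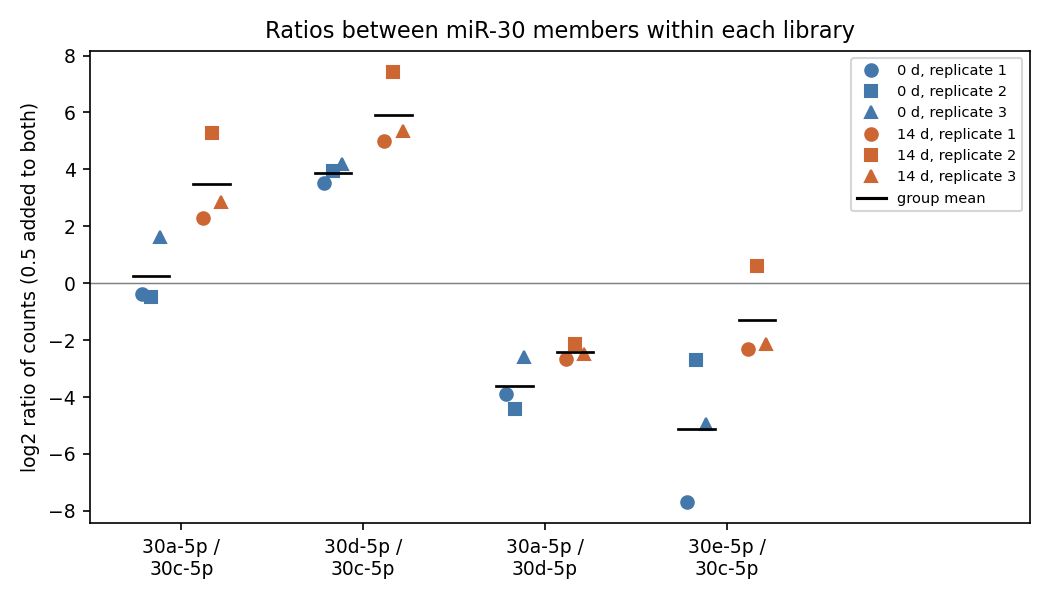
The log2 ratio of the counts of each pair of members (0.5 added to both) in each library, with a line at each group mean. The 14 d libraries lie above the 0 d libraries for miR-30a-5p and miR-30d-5p over miR-30c-5p and for miR-30e-5p over miR-30c-5p, and the groups overlap for miR-30a-5p over miR-30d-5p.

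The other 5 members were below the filter on low counts and were not tested. miR-30e-5p was listed in all 3 libraries at 14 d, with 4, 11 and 3 counts, and in 1 of 3 at 0 d, with 11 counts in replicate 2. Summed over libraries this was 25.1 CPM without TMM at 0 d and 93.2 at 14 d, a ratio of 3.71 with a 95% interval of 1.66 to 8.69 (exact binomial, counting error only). The spread between libraries is wider than that interval allows for, since the 0 d counts came from 1 library. Against miR-30c-5p, whose Mir30c1 precursor lies with Mir30e inside Nfyc, the mean log2 ratio of miR-30e-5p was -5.12 ± 2.49 (SD, n = 3) before induction and -1.28 ± 1.65 (SD, n = 3) after it. The groups did not overlap (exact permutation p = 0.1, adjusted 0.133), but 2 of the 0 d values, -7.68 and -4.95, rest on blanks taken as 0. The 0 d library with miR-30e-5p counts, replicate 2, was at -2.71, close to 14 d replicates 1 (-2.32) and 3 (-2.15). The highest value, 0.62, was that of 14 d replicate 2, where miR-30c-5p had 7 counts. The difference of the group means was 3.83, and it was 2.08 with 5 in place of 0.5 added to the counts.

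miR-30b-5p had 6 counts in 14 d replicate 1 and was not listed elsewhere, although its neighbour miR-30d-5p had 5240 counts over the 6 libraries. The deposited table lists no count below 2, so a blank may stand for a single count, and no limit on absence follows from it.

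The 3p arms were sparse. The Mir30a hairpin (GRCr8 chr9:33233941-33234011, + strand; the deposited files were made on rn6) is shown because both of its arms were counted, with the 5p arm first and both arms in capitals.
Mir30a: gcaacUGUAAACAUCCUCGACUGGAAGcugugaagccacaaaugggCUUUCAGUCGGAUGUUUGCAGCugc
miR-30a gave 695 counts of the 5p arm and 10 of the 3p arm, so that the 5p arm made up 98.6% (95% exact binomial interval 97.4 to 99.3, counting error only). All 10 of the 3p counts were in 0 d replicate 2. That library also held 16 of the 18 counts of miR-30e-3p, which differs from miR-30a-3p at 1 base and shares its seed, with the other 2 in 14 d replicate 3. For miR-30e the 5p arm had 11 counts against 16 of the 3p arm at 0 d, 40.7% (interval 22.4 to 61.2), and 18 against 2 at 14 d, 90.0% (interval 68.3 to 98.8). All 0 d counts of both miR-30e arms came from replicate 2, so these counting intervals do not compare the groups. For miR-30b the 3p arm had 12 counts at 0 d, all in replicate 1, with no 5p count listed, and 2 against 6 of the 5p arm at 14 d. For miR-30c, with 236 counts of the 5p arm, and miR-30d, with 5240, no 3p arm was listed. Over the family the 5p arm held 99.1% ± 0.982 before induction and 99.9% ± 0.130 after it (SD of 3 libraries), which overlapped.

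The miRNAs with the most similar course over the 6 libraries were found by the root mean square difference of centred log2 CPM among 103 other annotated miRNAs tested. For miR-30a-5p they were miR-221-3p (0.28), miR-24-3p (0.35), miR-152-3p (0.55) and miR-20a-5p (0.57), and miR-30d-5p came 11th at 0.80. For miR-30d-5p they were miR-23a-3p (0.25), miR-20a-5p (0.40), miR-152-3p (0.41) and miR-129-5p (0.45), with miR-30a-5p in place 22. All 6 of these neighbours were called higher at 14 d. For miR-30c-5p the nearest were miR-191a-5p (0.51), miR-494-3p (0.62), miR-423-5p (0.63) and let-7g-5p (0.64), none of them called, and miR-30a-5p was far from it at 1.96. The profiles share the same 6 libraries and scaling factors and include the difference between the groups. The calls of the neighbours therefore follow largely from how the neighbours were chosen, and the values are a description.

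Other miRNAs known to pair with the Runx2 mRNA were compared as a list of 13 that includes miR-30c-5p. The other miR-30 members, among them miR-30a-5p and miR-30d-5p, which were called higher, are not in that list. Of the 13, 7 were listed and 4 tested, and 2 rose while 0 fell, beside 26.1% called higher over all sequences. Their median log2 fold change was 1.77, against 0.26 over all tested. miR-34c-5p, a p53 target, rose by 2.20 ± 0.71 (edgeR adjusted p = 0.0319), with 130, 156 and 103 counts at 0 d and 48, 214 and 108 at 14 d. miR-23a-3p, of the miR-23a/27a/24-2 cluster, rose by 2.0 ± 0.71 (adjusted p = 0.0444), with 437, 303 and 63 counts at 0 d and 168, 309 and 198 at 14 d. Like miR-30d-5p, miR-23a-3p was low in 0 d replicate 3. miR-218a-5p was at 1.54 ± 0.63 and did not pass (adjusted p = 0.0695), but DESeq2 called it higher (1.48, adjusted p = 0.0166), as did edgeR on thinned libraries (2.41, adjusted p = 0.0099).

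The number called in that list depended on the setting. Total counts, limma on the authors' table and 1 line per name each left 0 of the list called higher. So did leaving out 0 d replicate 1, 0 d replicate 3 or 14 d replicate 2. miR-204-5p and miR-205 were listed in 1 library each at 0 d, with 10 and 8 counts, and miR-217-5p in 1 library at 14 d with 2. Of the list, miR-23b-3p, miR-133a-3p, miR-135a-5p, miR-137-3p, miR-211-5p and miR-338-3p were not listed.

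The Smad1 list held 4 other miRNAs known to pair with that mRNA and left out the whole miR-30 family. All 4 were tested, and edgeR called 0 in either direction, beside 54.6% over all sequences. At an unadjusted p below 0.05 there was 1, miR-26b-5p (1.46 ± 0.61, adjusted p = 0.0719), which DESeq2 called higher (1.45, adjusted p = 0.0358). miR-26b-5p was also called without 0 d replicate 1 (2.17, adjusted p = 0.0313), the library with its highest count, 98. miR-26a-5p, far more abundant at 5447, 6358 and 5549 counts at 0 d and 1232, 444 and 966 at 14 d, was at -0.75 ± 0.36 (adjusted p = 0.108) and passed as lower on the total-count scale (-1.50, adjusted p = 0.0285). miR-199a-3p and miR-199a-5p were at -0.29 and 0.05. Unlike the miR-30 family, this list held a smaller share of counts at 14 d, 1.70% ± 0.890 against 4.47% ± 0.482 (SD, n = 3 each), for the most part as miR-26a-5p.

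**Figure D3:**
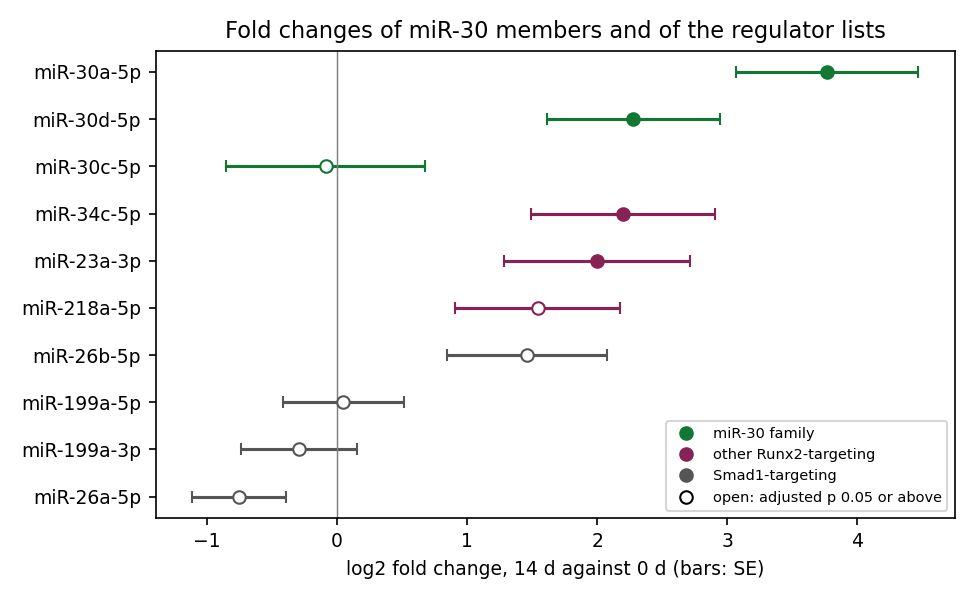
Log2 fold changes of 14 d against 0 d with their SE (3 libraries per group, edgeR with TMM factors) for the tested miR-30 members and for the tested members of the Runx2 and Smad1 lists; filled points have an adjusted p below 0.05. miR-30a-5p lies farthest to the right at 3.77, and 0 of the 4 Smad1-list members are filled.

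Red cell and serum miRNAs, which vesicle preparations can carry from the culture medium or blood, differed in share between the groups. All 9 on the list were present in the table, though miR-144-3p and miR-451-5p in 1 library each, with 2 and 7 counts, and miR-92a-3p at 0 d only. Their summed share was 5.30% to 13.2% at 0 d and 0.933% to 1.13% at 14 d. Of the 6 tested, 4 fell, beside 28.6% of all sequences, and 1 rose, miR-16-5p at 2.50 (adjusted p = 0.0259), beside 26.1%. The largest share was that of 0 d replicate 3, with 12911 counts of the liver miRNA miR-122-5p, the library in which miR-30d-5p was lowest. Without that library miR-30a-5p was at 3.70 and miR-30d-5p at 1.89, both still called. The other 0 d libraries still had shares of at least 5.30%, above every 14 d library, so this omission does not remove the difference in share. The part of these miRNAs in the miR-30 values was not tested.

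**Figure D4:**
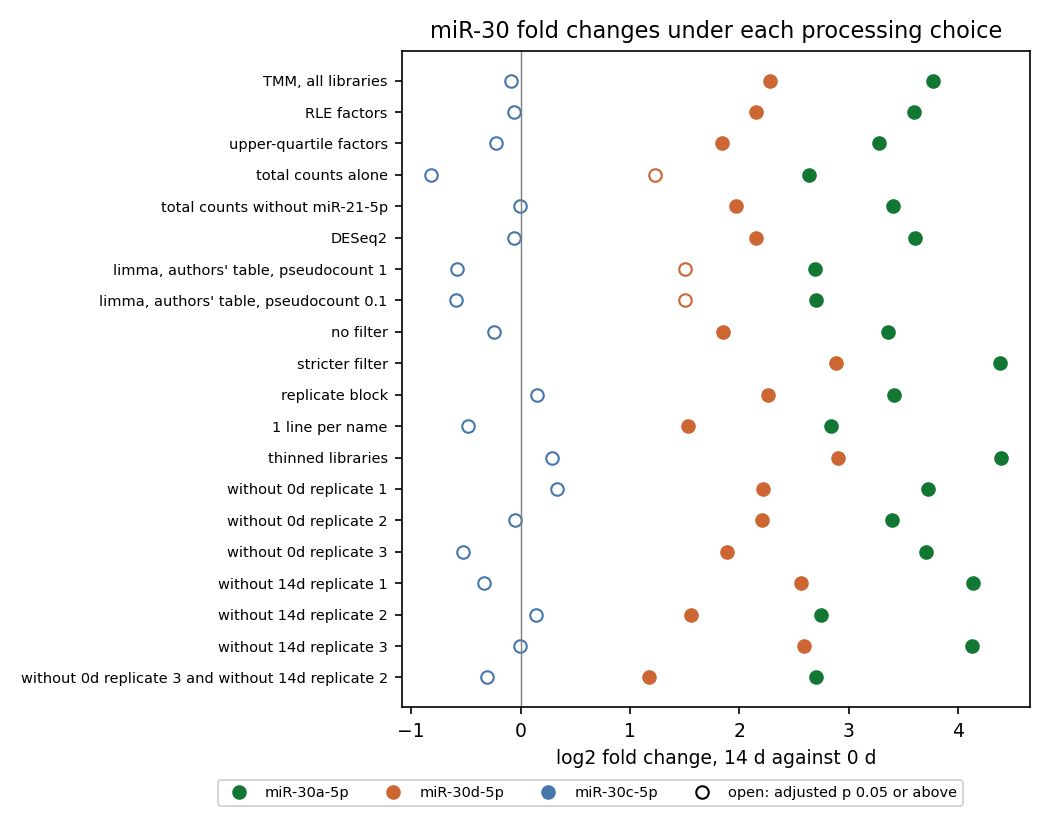
Log2 fold change of the 3 tested members under each scaling, test, filter and set of libraries; open points have an adjusted p of 0.05 or above. miR-30a-5p is filled throughout, between 2.64 and 4.39, miR-30d-5p is open for total counts and for the authors' table, while miR-30c-5p is open on both sides of 0.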

How the data were processed

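Small RNA libraries were made from Trizol-extracted total RNA, per the labels' protocols. Of the tools, cutadapt 1.9.3 and Novoalign 3.02.12 are named with build rn6 in the submitters' processing notes, which give them no role; no counting tool or miRNA annotation is stated there. The first deposited table holds raw tag counts for each mature miRNA, and the authors' second table a normalized score (a rounded normalized tag count), per the file headers. Blanks were taken as 0.

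Repeated lines of a mature sequence were merged. The whole table was tested with edgeR 4.0.16 (R 4.3.3; quasi-likelihood F test, TMM factors, group as the only term, default filter with minimum count 10 and minimum total 15, Benjamini-Hochberg adjustment over the 119 sequences kept, call at an adjusted p below 0.05). The SE is the log2 fold change divided by the square root of F. Ratios had 0.5 added to each count and were tested with exact permutation tests (scipy 1.17.1). Every pair of replicates differed beyond sampling noise (chi-square per degree of freedom 21.3 to 164). The procedure was tested on simulated counts.

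Alternatives were other scalings, DESeq2 1.42.0, limma 3.58.1 on log2 of the authors' score (pseudocount 1 or 0.1), no filter, a filter of 50 counts in 3 libraries, the replicate number as a block, 1 line per name, libraries thinned to 58730 counts and leaving out each library. Leaving out 0 d replicate 3 and 14 d replicate 2 together was chosen after seeing the data. The members and lists were chosen with earlier results of these data known. Named are all miR-30 sequences, tested members of the Runx2 and Smad1 lists and the 4 nearest profiles of each tested member; other miRNAs are named after their values were seen. Counting intervals do not cover amplification.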

Additional observations from a re-analysis of the deposited data

How the results depend on the processing

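The direction of miR-30a-5p and miR-30d-5p was the same in all 19 alternatives, and miR-30a-5p was called in each. miR-30d-5p was called in 16 of 19. These include the joint omission of 0 d replicate 3 and 14 d replicate 2, chosen after seeing the data. The exceptions were total counts alone (1.23, adjusted p = 0.0779) and limma on the authors' score (1.50, adjusted p = 0.0869, with pseudocount 1; 1.51, adjusted p = 0.0956, with 0.1), which each left 1 miR-30 member higher; the cause was not tested. Leaving out 1 library gave 2.75 to 4.13 for miR-30a-5p, 1.55 to 2.59 for miR-30d-5p (adjusted p up to 0.0497) and -0.52 to 0.33 for miR-30c-5p, and kept the count of members higher at 2 and lower at 0. miR-30c-5p was never called, and had the opposite sign after thinning (0.28), with the block (0.15), and without 0 d replicate 1 (0.33) or 14 d replicate 2 (0.14); the cause was not tested. It could not be tested with the stricter filter.

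Whether the replicate numbers pair samples across the groups could not be decided from 3 libraries per group. The deviations of same-numbered libraries correlated at -0.02, 0.04 and 0.17 across sequences, and those of other pairs at -0.14 to 0.05. The highest value was that of a same-numbered pair, but not every library correlated best with its own number. With the replicate number as a block miR-30a-5p was at 3.41 and miR-30d-5p at 2.27, both called, and over all sequences 31 were higher and 31 lower.

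The family's share of counts was 2.46 times as large at 14 d, 1.91 to 2.98 times with 1 library left out and 4.10 times without miR-21-5p in the total. Leaving out 1 library gave differences in log2 ratio of 2.32 to 3.90 for miR-30a-5p over miR-30c-5p, 1.29 to 2.51 for miR-30d-5p over miR-30c-5p, 0.79 to 1.71 for miR-30a-5p over miR-30d-5p and 2.55 to 5.03 for miR-30e-5p over miR-30c-5p.

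Counts called higher and lower over all sequences were 18 and 46 with total counts, and 20 and 44 or 17 and 36 with the authors' table (pseudocount 1 or 0.1). In the Runx2 list, 2 were higher, but 3 with DESeq2 and after thinning, and 0 with total counts, both limma settings and 1 line per name. It was 1 with no filter, the block, or both 0 d replicate 3 and 14 d replicate 2 left out, and 0 to 2 with 1 library left out. In the Smad1 list, 1 was higher with DESeq2 and after thinning, 0 to 1 with 1 library left out, and 1 was lower with total counts. In the red cell and serum list the 1 higher call fell to 0 with total counts, both limma settings, no filter, the stricter filter and both libraries left out, and was 0 to 1 with 1 left out; the 4 lower calls fell to 2 after thinning. In the mesenchymal list the 5 higher calls became 2 with total counts, 3 and 2 with limma (pseudocount 1 and 0.1); the 2 lower calls were 1 to 3 with 1 library left out. The depth limits miR-30b, miR-30e and the 3p arms, with at most 16 counts in any library.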
